A study of Mus musculus with 38 samples.

Results

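Collagen chains are the gene products that wind together into the triple helices of the extracellular matrix. The chains described here are all mouse genes whose symbol is Col, a number, the letter a and a number, pseudogenes left out: 44 genes of the 55487 in the count tables. By the structure their products are known to form they fall into 11 fibril-forming chains, 9 fibril-associated chains, 6 chains of the basement membrane network (type IV), 6 of beaded filaments (type VI), 4 transmembrane chains, 3 short-chain network formers, 2 multiplexins, 1 anchoring fibril chain and 2 others. The study sequenced poly(A) RNA of BV2, a murine line derived from microglia, of GL261, a murine glioma line stably expressing the green fluorescent protein plasmid pEGFP-N1, and of primary bone marrow-derived macrophages (BMDM) of wild-type mice. In the first experiment all 3 were kept for 16 h in normoxia (21% oxygen) or hypoxia (less than 0.1% oxygen), either as monocultures or with tumour cells and phagocytes in contact, at 1 BV2 cell to 2 GL261 cells or 1 BMDM to 1 GL261 cell; the GL261 libraries of co-cultures used here had BV2 as the partner. The second experiment gave BV2 cells and BMDM the solvent dimethyl sulfoxide (DMSO) in normoxia and in hypoxia, and, in hypoxia only, 10 nM of the histone deacetylase inhibitor panobinostat, also for 16 h. The medium held 2% serum for BV2 cells and 10% for BMDM, and all cells were fixed in 3% glyoxal; how co-cultured cells were separated is not given in the sources used here. There were 18 groups, of which 16 had 2 libraries and the normoxic and hypoxic BMDM of the co-cultures had 3. The name first experiment covers the monocultures and co-cultures without DMSO and does not stand for a batch. Its BV2 and GL261 libraries share a count table, its BMDM libraries have another, and the labels give no batch.

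Fibril-forming collagens (types I, II, III, V, XI, XXIV and XXVII) assemble into the banded fibres of connective tissue and cartilage, whereas type IV collagen is the sheet-like scaffold of basement membranes. Type II, type IX and type XI chains together build the fibrils of cartilage and of the vitreous of the eye. Before secretion the chains are hydroxylated by prolyl and lysyl hydroxylases. These enzymes need oxygen, which makes the chains and their enzymes of interest in cells deprived of it. Macrophages and microglia are known more for taking up and remodelling collagen than for making it, and type XVIII collagen, a multiplexin of basement membranes, is best known as the source of endostatin.

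The feature shared by the chains is a helical part built of amino acid triplets that each open with glycine, which the coding sequence shows directly. The longest unbroken run of such triplets was 216 to 344 triplets long in the 11 fibril-forming chains, with a median of 338, and 39 to 66 in the 6 type IV chains, with a median of 43.5. It was 32 to 113 in the fibril-associated and 40 to 56 in the transmembrane chains. The following stretches of 24 codons are the ends of those runs in 4 chains on which the results below turn. They were taken from the longest coding transcript in the GENCODE M21 annotation of GRCm38, and the glycine codons of the run stand in capitals. In each the regular spacing stops before the end of the stretch.
Col2a1, codons 1203 to 1226, end of a run of 339 triplets: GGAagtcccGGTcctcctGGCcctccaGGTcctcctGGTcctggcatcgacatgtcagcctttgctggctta
Col9a2, codons 504 to 527, end of a run of 113 triplets: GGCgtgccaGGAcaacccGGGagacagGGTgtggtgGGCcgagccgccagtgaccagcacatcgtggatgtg
Col4a1, codons 148 to 171, end of a run of 40 triplets: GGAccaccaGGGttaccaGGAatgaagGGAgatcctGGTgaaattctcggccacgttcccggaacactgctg
Col17a1, codons 801 to 824, end of a run of 56 triplets: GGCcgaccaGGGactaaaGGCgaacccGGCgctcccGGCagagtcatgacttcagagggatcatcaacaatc
The repeat did not make the chains hard to tell apart by read: of all 75-base words of each member's transcripts, 0 were shared with another gene for all but 5 members, and among those 5 the share was at most 2.97% (Col6a6).

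Libraries held 9634700 to 27238933 counts, and levels are given as CPM, the counts of a gene per 1000000 counts of its library. On that scale 3 counts corresponded to 0.110 to 0.311 CPM. Intervals and floors of this kind cover counting error only. The labels say that 2 biological replicates were analysed per condition in the first experiment; where nothing says that libraries came from separate cultures or animals, p-values measure the spread between these libraries, which may be technical. The labelled cell types differed in their defining markers. The summed level of 10 macrophage and microglia markers was 1956 to 2937 CPM in BV2 and 6902 to 18669 CPM in BMDM of the first experiment, against 14.8 to 43.6 CPM in GL261 cells. That of 8 glioma and glial markers was 1504 to 2166 CPM in GL261 cells and 0.400 to 1.59 CPM in BV2 monocultures. In BMDM monocultures it was 148 to 284 CPM, with 2 or 3 of the 8 at 1 CPM or more. The BMDM of the second experiment stood apart. The summed level of 12 fibroblast and stromal markers there was 407 to 2272 CPM, against 8.09 to 63.5 CPM in BMDM of the first experiment. GL261 libraries held the same markers at 204 to 387 CPM. Results for the BMDM of the second experiment are described separately. A chain was tested in a comparison only if its counts passed a filter on low values, so the counts of tested chains below leave out those too rare to test. In bulk samples such as these, fewer cells of a type and less RNA per cell cannot be told apart.

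Collagen RNA separated the cell types by its amount and by its kind. It made up 1.0 to 1.5% of all counts in the 8 GL261 libraries, 0.00905 to 0.0385% in the 8 BV2 libraries and 0.0953 to 0.266% in the 10 BMDM libraries of the first experiment. In the second experiment the share was 0.0144 to 0.0302% in the 6 BV2 and 0.482 to 3.19% in the 6 BMDM libraries. Of the 44 chains, 39 reached a mean of 1 CPM in at least 1 group. The other 5 were Col4a4, Col6a5, Col6a6, Col13a1 and Col26a1, whose highest group means were 0.147 to 0.857 CPM.

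**Figure D1:**
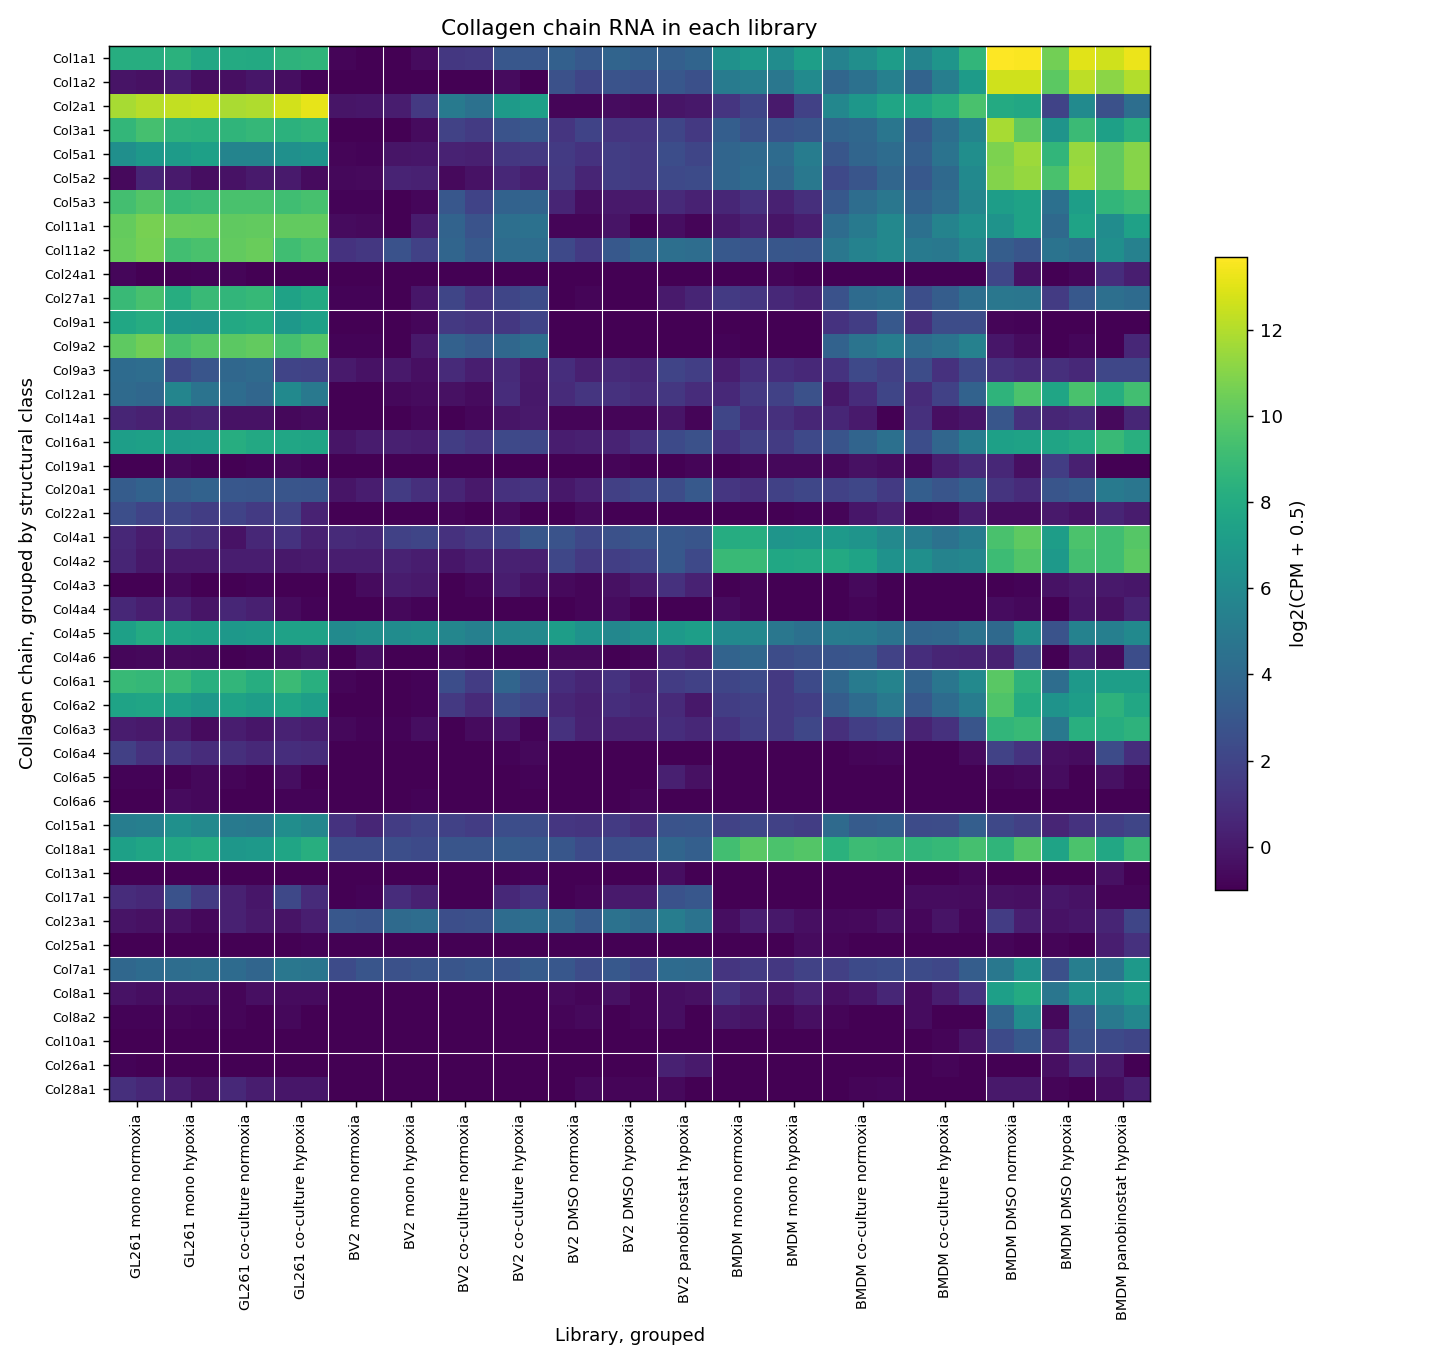
Heat map of the level of each of the 44 collagen chains (vertical axis, grouped by structural class) in each of the 38 libraries (horizontal axis, grouped by cell type and condition), as log2 of CPM plus 0.5. GL261 libraries and BMDM of the second experiment are high in the fibril-forming block, BMDM of the first experiment in Col4a1, Col4a2 and Col18a1, and BV2 libraries in few chains, led by Col4a5.

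In normoxic GL261 monocultures the chains of cartilage fibrils led. Per kilobase of exon, so that genes can be compared, the highest mean levels were those of Col2a1 (431 CPM per kb), Col9a2 (409), Col11a2 (205), Col11a1 (112), Col5a3 (109) and Col6a1 (103). Fibril-forming chains made up 76.3% and fibril-associated chains 14.4% of their collagen RNA. The single chain of type II collagen, Col2a1 (ENSMUSG00000022483, GRCm38 chr15:97975602-98004695, minus strand), was at 3482 and 4489 CPM in the 2 libraries. The partners of several chains were at or near the counting limit: Col1a1, the major chain of type I collagen, stood at 43.0 CPM per kb on average, and its usual partner Col1a2 at 0.0259. Per kilobase the level of Col1a1 was 1471 to 1892 times that of Col1a2 in these libraries, where Col1a2 had as few as 5 counts, against 4.92 to 6.02 times in normoxic BMDM monocultures. Col5a2 (0.0554 CPM per kb) and Col6a3 (0.0451), the partners of Col5a1 (11.2) and Col6a1, were likewise low. Sox9, a transcription factor known for driving Col2a1 in cartilage, had 0 counts in all 8 GL261 libraries, and Acan, the cartilage proteoglycan, was at 4.96 and 6.12 CPM in the normoxic monocultures.

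Normoxic BV2 monocultures held 7 chains at a mean of 1 CPM or more, and type IV chains made up 75.8% of their collagen RNA. The X-linked type IV chain Col4a5 led with 65.8 and 76.7 CPM (10.6 CPM per kb), followed per kilobase by the transmembrane chain Col23a1 (1.23), the multiplexin Col18a1 (0.659) and the anchoring fibril chain Col7a1 (0.564). Its neighbour Col4a6, whose start lies 1309 bases from that of Col4a5 on the opposite strand, was at 0 and 0.227 CPM. In normoxic BMDM monocultures Col18a1 (112 CPM per kb), Col4a2 (75.9) and Col4a1 (36.9) led, and type IV chains and multiplexins made up 46.4% and 42.0% of the collagen RNA.

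The direct comparison of normoxic GL261 with BV2 monocultures, in which a chain could be tested because it was high in 1 of the 2 lines, gave 27 chains higher and 1 lower in GL261 of 32 tested (edgeR quasi-likelihood test, adjusted p under 0.05), where 73.2% of all genes tested differed (39.4% higher and 33.8% lower). All 8 tested fibril-associated and all 4 tested type VI chains were higher in GL261. Since chains faint in BV2 could be tested through GL261, these counts are not read as a result for the chains together. The chain lower in GL261 was Col23a1, at 0.323 CPM on average in GL261 and 7.05 CPM in BV2, a log2 difference of -4.57 (SE 0.33, edgeR adjusted p = 4.9e-10). Of the 28 calls, 27 held without any 1 library. The exception was Col6a3, which missed the threshold without either GL261 library (edgeR adjusted p = 0.081 and 0.052) and without BV2 library 2 (0.14).

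Hypoxia moved the cartilage-type chains of GL261 in opposite directions. In monoculture 6 chains rose and 7 fell of 30 tested (edgeR, adjusted p under 0.05), where 44.6% of all genes tested changed (23.2% rose and 21.4% fell), and the median log2 change of the tested chains was -0.27, against -0.03 over all genes. The share of chains called was thus close to that of all genes. Col2a1 was at 3482 and 4489 CPM in normoxia and 5226 and 5567 CPM in hypoxia, a log2 change of 0.49 (SE 0.18, edgeR adjusted p = 0.040). Col11a2 (ENSMUSG00000024330, GRCm38 chr17:34039437-34066685, plus strand), a chain of the type XI collagen that nucleates cartilage fibrils, was at 1241 and 1583 CPM in normoxia and 605 and 718 CPM in hypoxia, a log2 change of -1.04 (SE 0.16, edgeR adjusted p = 0.00041). The groups did not overlap for either chain.

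All 3 chains of type IX collagen, which decorates the surface of type II fibrils, fell in the same libraries. Col9a1 went from 211 and 277 CPM to 108 and 99.4 CPM, a log2 change of -1.17 (SE 0.18, edgeR adjusted p = 0.00038). Col9a2 went from 1068 and 1465 CPM to 675 and 902 CPM (-0.63, SE 0.19, adjusted p = 0.016), and Col9a3 from 17.4 and 18.7 CPM to 4.08 and 6.74 CPM (-1.71, SE 0.22, adjusted p = 0.00013). Of the Col9a3 exons 6.07% overlap Tcfl5 on the other strand. Col11a1, the other type XI chain, was at 1192 and 1657 CPM in normoxia and 1269 and 1217 CPM in hypoxia and did not pass the test. The level of Col11a1 per kilobase was 0.518 to 0.565 times that of Col11a2 in normoxic and 0.915 to 1.13 times in hypoxic monocultures, with no overlap.

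The 6 chains that rose with hypoxia in GL261 monocultures were Col2a1, both multiplexins, Col5a1, Col17a1 and Col12a1, and 0 of the 4 tested type IV chains were called. Of the multiplexins, Col15a1 went from 36.8 and 40.4 CPM to 82.3 and 58.7 CPM (0.93, SE 0.20, edgeR adjusted p = 0.0034), and Col18a1 from a mean of 178 to 241 CPM (0.49, SE 0.17, adjusted p = 0.036). The type V chain Col5a1 went from 78.1 and 111 CPM to 134 and 164 CPM (0.71, SE 0.15, edgeR adjusted p = 0.0032). Col17a1, the transmembrane chain of hemidesmosomes (ENSMUSG00000025064, GRCm38 chr19:47646344-47692094, minus strand), was at 1.34 and 1.13 CPM in normoxia and 5.91 and 2.45 CPM in hypoxia (1.84, SE 0.57, adjusted p = 0.022). The fibril-associated Col12a1 went from 16.1 and 14.7 CPM to 50.8 and 24.0 CPM (1.36, SE 0.39, adjusted p = 0.015). For both, hypoxic library 1 was the higher.

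Of the 13 calls, 5 held without any 1 library: Col11a2, Col9a1 and Col9a3, lower, and Col15a1 and Col5a1, higher. The count was 8 without normoxic library 1, 7 without normoxic library 2 and 8 without hypoxic library 1. Without hypoxic library 1 the change of Col17a1 was 1.00 (edgeR adjusted p = 0.23) and that of Col12a1 0.67 (0.17). The change of Col2a1 was 0.35 without normoxic library 1 (adjusted p = 0.16), that of Col9a2 -0.39 without normoxic library 2 (0.15), and that of Col18a1 0.39 without normoxic library 1 (0.19). Col28a1, Col3a1 and Col5a3, the other chains that fell, also missed the threshold without 1 or more of these libraries, where Col3a1 changed by -0.20 without normoxic library 2 (edgeR adjusted p = 0.34).

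In GL261 cells from co-culture with BV2, 9 chains were higher and 5 lower in hypoxia of 30 tested, where 52.4% of all genes changed (26.8% rose and 25.6% fell). Col2a1 was at 3570 and 3919 CPM in normoxia and 6685 and 8976 CPM in hypoxia, a log2 change of 1.12 (SE 0.18, edgeR adjusted p = 0.00030). Col18a1 rose by 1.15 (SE 0.17, adjusted p = 0.00021), Col15a1 by 1.14 and Col12a1 by 1.63. Col9a3 changed by -2.11 (SE 0.24, adjusted p = 3.0e-05), Col27a1, a fibril-forming chain of cartilage, by -1.01, Col11a2 by -0.84 and Col9a1 by -0.76. Col9a2 did not pass here (-0.39, SE 0.19, adjusted p = 0.094). Of the 14 calls, 10 held without any 1 library. Col17a1 (2.21) changed by 1.12 without hypoxic library 1 (edgeR adjusted p = 0.21), Col9a1 by -0.53 without the same library (0.052), Col4a4 by -2.11 without hypoxic library 2 (0.083), and Col4a5 by 0.51 without normoxic library 1 (0.12).

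The monoculture and co-culture calls had 9 chains in common, all in the same direction, 6 higher and 3 lower. These were 69.2% of the 13 and 64.3% of the 14 calls, and 0 chains were called in opposite directions. A test of the difference between the 2 hypoxia effects gave 0 of 30 chains (edgeR adjusted p under 0.05; 7 at an unadjusted p under 0.05; 0 with DESeq2), where 0.0% of all genes passed in either direction. For Col2a1, for example, the difference was 0.63 (SE 0.25, edgeR adjusted p = 0.55).

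**Figure D2:**
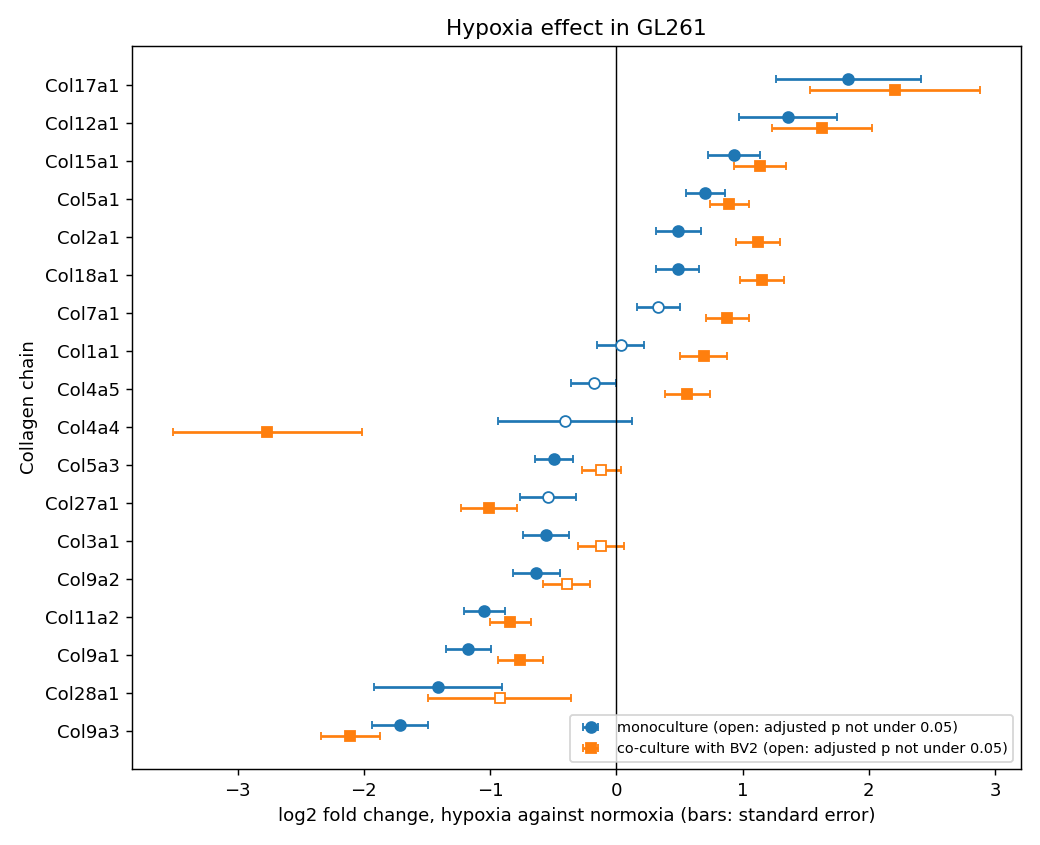
Log2 change of collagen chains in GL261 cells between hypoxia and normoxia, with its standard error, in monoculture and in co-culture with BV2 (2 libraries per group). Only tested chains called in monoculture, in co-culture or in both are shown. Open symbols did not pass the test. Col9a3, Col11a2 and Col9a1 lie below 0 and Col2a1, Col5a1, Col15a1, Col18a1, Col12a1 and Col17a1 above 0 in both.

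Co-culture itself moved few chains of GL261. In normoxia the fibril-associated Col16a1 was higher in co-culture, at 279 and 237 CPM against 149 and 164 CPM (log2 difference 0.77, SE 0.14, edgeR adjusted p = 0.032), and Col5a1 lower, at 48.0 and 49.7 CPM against 78.1 and 111 CPM (-0.90, SE 0.16, adjusted p = 0.031). These were 2 of 30 chains, where 0.514% of all genes differed (0.323% higher and 0.191% lower). In hypoxia Col5a1 alone passed, at 81.4 and 92.9 CPM against 134 and 164 CPM (-0.71, SE 0.15, adjusted p = 0.046), where 1.39% of all genes differed (0.889% higher and 0.5% lower). None of these 3 calls held under all removals of 1 library: in normoxia the difference of Col16a1 was 0.65 without co-culture library 1 (edgeR adjusted p = 0.58) and that of Col5a1 -0.65 without monoculture library 2 (0.26), and in hypoxia that of Col5a1 was -0.61 without monoculture library 2 (0.20). BV2-specific RNA in these co-culture libraries was at 0.773% of its level in BV2 cells in normoxia and 0.237% in hypoxia (means, 121 genes), against 0.0542% and 0.0351% in GL261 monocultures, and its part in the result was not tested.

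In BV2 monocultures the chains that rose with hypoxia were mostly faint. Of 25 tested, 10 rose and 0 fell, where 61.9% of all genes changed (30.9% rose and 31.0% fell). The 25 passed the filter over all 8 BV2 libraries of the first experiment, co-cultures and hypoxic libraries included, while 7 chains in normoxic and 10 in hypoxic monocultures reached a mean of 1 CPM. A faint chain could therefore be tested because it was high in another group, and neither the count nor its direction is read as a result for the chains together. The transmembrane chain Col23a1 (ENSMUSG00000063564, GRCm38 chr11:51289920-51583918, plus strand) was at 7.51 and 6.58 CPM in normoxia and 16.3 and 18.4 CPM in hypoxia, a log2 change of 1.35 (SE 0.16, edgeR adjusted p = 1.5e-06). Col17a1 was at 0 and 0.0454 CPM in normoxia and 1.31 and 0.754 CPM in hypoxia (adjusted p = 8.1e-05). Col20a1, a fibril-associated chain, went from 0.382 and 0.636 CPM to 2.46 and 1.51 CPM (2.00, SE 0.42, adjusted p = 0.00063). None of these groups overlapped.

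The other chains that rose in BV2 monocultures were Col4a1, from 1.12 to 3.40 CPM on average, and Col4a3, Col5a1, Col5a2, Col2a1, Col11a2 and Col15a1, whose hypoxic means were 0.415 to 4.51 CPM. Col4a5, the leading chain, was at 65.8 and 76.7 CPM in normoxia and 69.2 and 78.3 CPM in hypoxia and did not pass. Of the 10 calls, 6 held without any 1 library. Col2a1 changed by 0.74 without hypoxic library 2 (edgeR adjusted p = 0.35). That library also held GL261-specific RNA at 0.0531% of its GL261 level, against 0 in hypoxic library 1, and Col2a1 was at 2.26 CPM there and 0.628 CPM in library 1. Col11a2 changed by 0.75 without hypoxic library 1 (adjusted p = 0.063), Col15a1 by 0.78 without normoxic library 2 (0.061) and Col4a3 by 1.56 without normoxic library 1 (0.18).

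The upstream sequences of 2 chains are shown: Col11a2, called in opposite directions in GL261 and BV2 monocultures, and Col23a1, the transmembrane chain that rose in BV2. They cover the 250 bases before the RefSeq start on GRCm38.p6, plus strand, and overlap no annotated exon. Capitals mark the letters ACGTG or GCGTG, on either strand, which are the core of the sites known to bind hypoxia-inducible factors.
Col11a2, chr17:34038888-34039137: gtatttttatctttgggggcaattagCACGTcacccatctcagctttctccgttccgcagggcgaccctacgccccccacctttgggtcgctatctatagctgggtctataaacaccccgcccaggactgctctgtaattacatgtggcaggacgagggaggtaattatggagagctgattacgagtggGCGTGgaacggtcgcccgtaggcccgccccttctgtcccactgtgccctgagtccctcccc
Col23a1, chr11:51289670-51289919: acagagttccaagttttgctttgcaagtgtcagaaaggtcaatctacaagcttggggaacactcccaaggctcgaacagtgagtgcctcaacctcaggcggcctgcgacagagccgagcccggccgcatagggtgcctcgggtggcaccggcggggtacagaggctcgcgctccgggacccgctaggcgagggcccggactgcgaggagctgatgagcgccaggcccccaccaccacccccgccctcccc
Col11a2 holds 2 such cores in this stretch, and Col23a1 holds 0. A RefSeq window of 300 bases was found for 35 of the 44 chains, in 38 windows. A core was present in 13 of these 38 windows (34.2%) and in 14380 of 32851 windows over all genes (43.8%). A match describes the letters only.

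In BV2 cells from co-culture with GL261, 19 of 25 chains were higher in hypoxia and 0 lower, where 67.3% of all genes changed (35.2% rose and 32.1% fell). Of these calls, 9 held without any 1 library, and the count was between 13, without normoxic library 2, and 19. These are the 25 chains that passed the filter over all BV2 libraries, as above, so the count is not read against the share of all genes. Col23a1 was at 5.17 and 5.48 CPM in normoxia and 17.6 and 19.6 CPM in hypoxia (log2 change 1.91, SE 0.17, edgeR adjusted p = 5.8e-08), and Col17a1 at 0 CPM in both normoxic and 1.13 and 1.69 CPM in the hypoxic libraries (adjusted p = 2.8e-05). Col2a1 went from 26.8 to 142 CPM on average (2.53, SE 0.21, edgeR adjusted p = 2.8e-08), Col1a1 from 2.17 to 7.42 CPM (1.88, SE 0.31, adjusted p = 5.6e-05) and Col11a1 from 9.30 to 21.0 CPM (1.31, SE 0.29, adjusted p = 0.00085; 0.28 with DESeq2). The last 3 chains are abundant in GL261 cells, the partner in these dishes.

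The amount of partner RNA in the BV2 libraries was therefore set beside the chains. GL261-specific RNA was measured over 217 genes other than collagens. At both oxygen levels these genes stood at 20 CPM or more in GL261 monocultures and exceeded their level in BV2 monocultures by 100-fold or more. GL261-specific RNA was at 0.955 and 0.568% of its GL261 level in the normoxic and at 2.07 and 2.35% in the hypoxic BV2 co-culture libraries, against at most 0.0531% in BV2 monocultures. The 13 chains that met the same rule (Col1a1, Col2a1, Col3a1, Col5a1, Col5a3, Col6a1, Col6a2, Col9a1, Col9a2, Col11a1, Col11a2, Col16a1 and Col27a1) had median levels of 0.908 and 0.578% of their GL261 level in the normoxic and 2.30 and 2.45% in the hypoxic libraries. In each library the median of the chains lay near the share measured on the other genes. Single chains ranged from 0.337 to 1.75% in normoxia and from 0.951 to 3.93% in hypoxia.

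**Figure D3:**
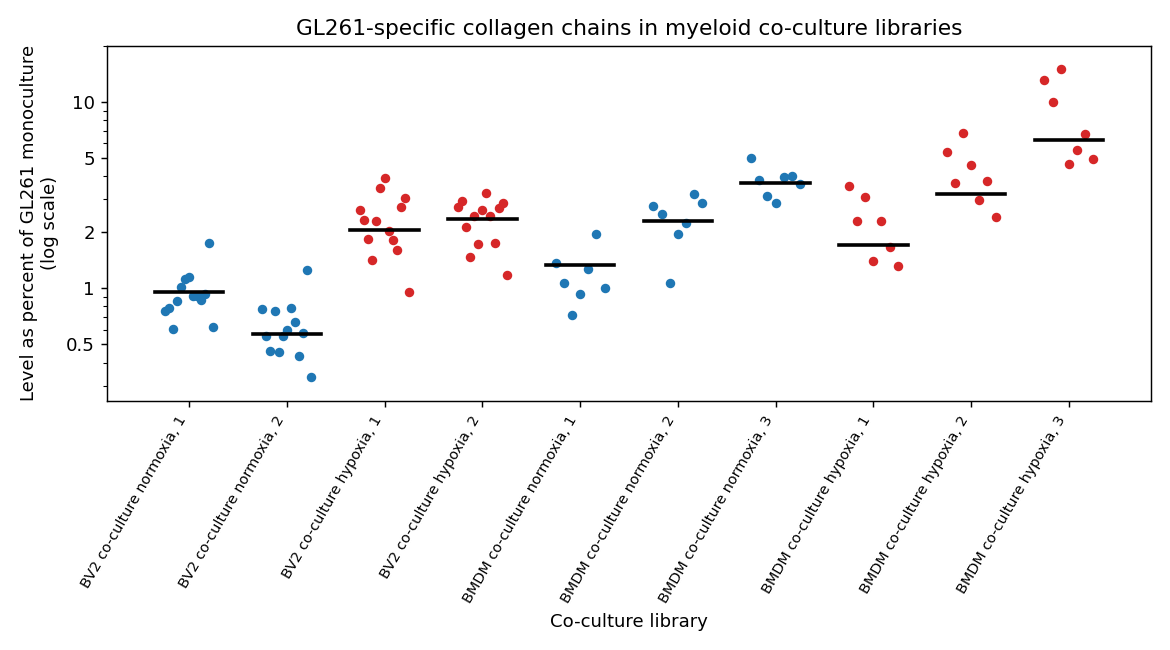
Level of each GL261-specific collagen chain in each co-culture library of BV2 or BMDM, as a percent of its level in GL261 monocultures at the same oxygen level (points), with the share of GL261-specific RNA measured over other genes in that library (black line). Chains lie above and below the line in each library, with Col2a1, Col5a3 and Col6a1 above it in all 3 hypoxic BMDM libraries. The shares are 0.568 to 2.35% in BV2 and 1.34 to 6.28% in BMDM.

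BV2 co-culture against monoculture gave 14 chains higher and 1 lower of 25 in normoxia, where 14.9% of all genes differed (5.77% higher and 9.14% lower), and 14 higher and 0 lower in hypoxia, where 15.7% differed (8.13% and 7.57%). All 13 GL261-specific chains were among the higher ones at both oxygen levels. They were chosen as low in the same BV2 monocultures, and a faint chain could be tested because it was high in co-culture. Neither this nor the counts are therefore read as a result for the chains together. When genes whose level in GL261 monocultures was 4-fold that in BV2 or more were left out before the fit, 8 chains remained to be tested, of which 1 was called in normoxia and 0 in hypoxia. In those fits 1190 of 13107 genes were called in normoxia and 1403 of 12903 in hypoxia. The 1 call was Col4a5, lower in co-culture at 53.8 and 41.3 CPM against 65.8 and 76.7 CPM (log2 difference -0.64, SE 0.13, edgeR adjusted p = 0.0050, and 0.020 without the partner-high genes). It was -0.55 without monoculture library 2 (adjusted p = 0.063) and -0.5 without co-culture library 2 (0.062). Col5a1 in normoxia was also lost without monoculture library 2 (0.061), Col15a1 without that or either co-culture library, and Col18a1 in hypoxia without monoculture library 2 (0.096) or co-culture library 1 (0.051).

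In BMDM of the first experiment the basement membrane chains were abundant, and 3 of the 4 type IV chains tested fell with hypoxia. In monoculture Col4a1 went from 272 and 279 CPM to 102 and 109 CPM, a log2 change of -1.13 (SE 0.28, edgeR adjusted p = 0.015). Col4a2, transcribed from the opposite strand of the same start region with gene bodies that overlap by 22 bases, went from 501 and 503 CPM to 213 and 235 CPM and missed the threshold (-0.91, SE 0.37, adjusted p = 0.096). Both pairs of libraries were apart without overlap.

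The X-linked pair of type IV chains showed the same direction. Col4a5 went from 62.0 and 58.5 CPM to 27.6 and 20.9 CPM (-1.06, SE 0.25, edgeR adjusted p = 0.011), and Col4a6 from 12.2 and 14.8 CPM to 4.85 and 5.72 CPM (-1.09, SE 0.36, adjusted p = 0.047). Col20a1 rose from 2.00 and 1.57 CPM to 3.12 and 3.81 CPM (1.21, SE 0.34, adjusted p = 0.026). Col18a1, the most abundant chain, was at 609 and 963 CPM in normoxia and 747 and 851 CPM in hypoxia, which overlap. In all, 1 chain rose and 3 fell of 28 tested, where 23.9% of all genes changed (13.3% rose and 10.6% fell).

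No call in BMDM monocultures held under every removal of 1 library: the count was 0 without normoxic library 1 or hypoxic library 2, and 1 without either of the others. For Col4a1 the change stayed between -1.22 and -1.09, with an adjusted p of 0.053 to 0.093, and for Col20a1 it was 0.97 without normoxic library 2 (edgeR adjusted p = 0.19). With a fit of only the 2 groups compared, 7 chains were called, where 6289 of 13237 genes were. The summed level of 6 smooth muscle and pericyte markers was 78.6 and 58.9 CPM in the normoxic and 33.8 and 39.9 CPM in the hypoxic monocultures, with 3 of the 6 at 1 CPM or more in each library, and so was lower in hypoxia without overlap, as the type IV chains were. The fibroblast marker sum was 13.4 and 21.0 CPM in normoxia and 11.96 and 23.2 CPM in hypoxia. Their part in the result was not tested.

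**Figure D4:**
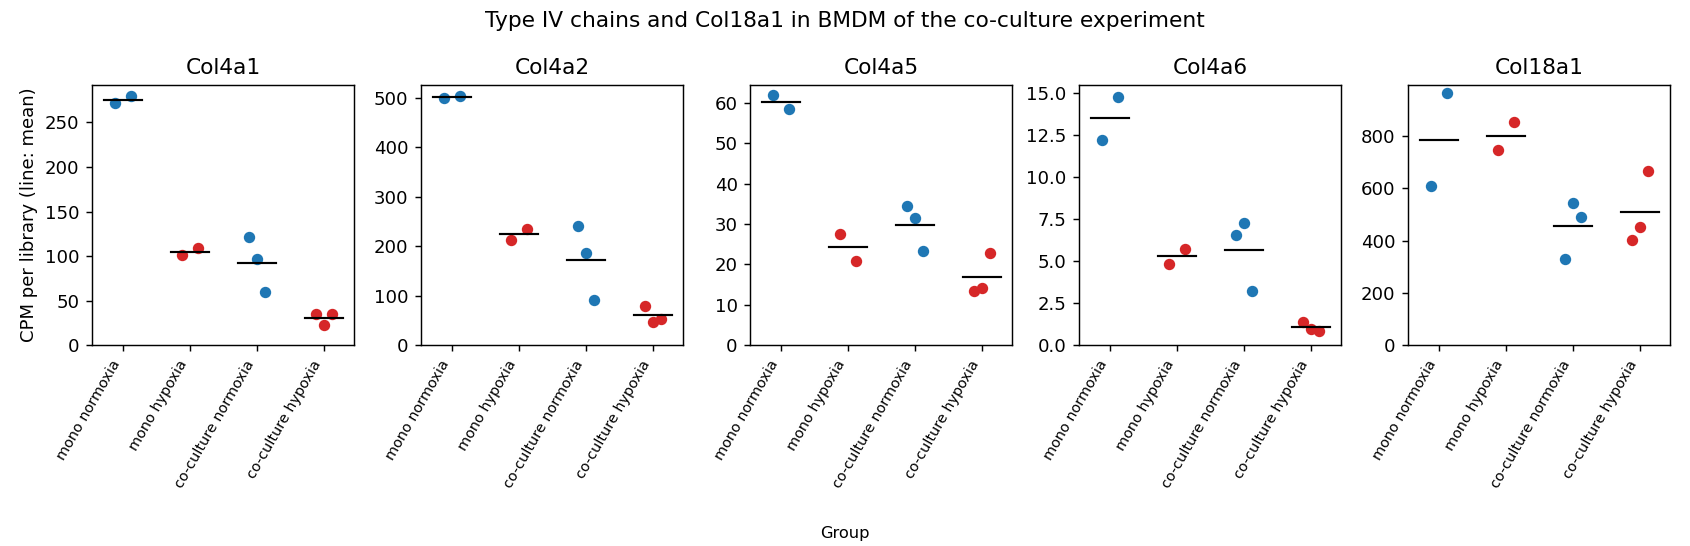
Levels in CPM of Col4a1, Col4a2, Col4a5, Col4a6 and Col18a1 in each BMDM library of the first experiment, by group. The 4 type IV chains are lower in hypoxia than in normoxia, while Col18a1 overlaps between oxygen levels.

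In BMDM from co-culture with GL261 all 4 tested type IV chains fell with hypoxia. Col4a1 was at 122, 96.6 and 59.4 CPM in normoxia and 35.3, 22.6 and 34.8 CPM in hypoxia (log2 change -1.48, SE 0.24, edgeR adjusted p = 0.00084). Col4a2 was at 242, 186 and 90.6 CPM in normoxia and 80.3, 46.7 and 54.0 CPM in hypoxia (-1.41, SE 0.30, adjusted p = 0.0046). Col4a6 changed by -2.31 (SE 0.34, adjusted p = 0.00055) and Col4a5 by -0.72 (SE 0.21, adjusted p = 0.019). The groups did not overlap for any of the 4 chains.

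Col20a1 rose in the same comparison, from 3.07, 3.86 and 2.32 CPM to 10.0, 6.70 and 10.9 CPM (1.67, SE 0.27, edgeR adjusted p = 0.00092). Col2a1 (1.81, adjusted p = 0.029; 0.056 with DESeq2) and Col5a2 (1.90, adjusted p = 0.045; 0.054 with DESeq2) passed with groups that overlap. In all, 3 chains rose and 4 fell of 28, where 34.8% of all genes changed (17.5% rose and 17.3% fell). Same-numbered libraries of these groups deviated together, and with the replicate number as a block 13 chains were called, 9 higher and the same 4 lower. The 9 were Col20a1, Col2a1 and Col5a2 with Col1a1, Col1a2, Col5a1, Col5a3, Col11a1 and Col12a1. Under the same fit 5779 of 14806 genes were called, against 5154 without the block.

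Of the 7 calls, Col20a1, Col4a1, Col4a2 and Col4a6 held without any 1 library. Without normoxic library 1 the count was 4, and Col4a5 changed by -0.62 (edgeR adjusted p = 0.070). Without hypoxic library 3 Col2a1 changed by 1.16 (adjusted p = 0.13) and Col5a2 by 0.71 (0.32). Both co-culture libraries numbered 3 held the most GL261-specific and the most fibroblast-marker RNA of their groups. In GL261 monocultures the fibroblast marker sum was 290 and 387 CPM in normoxia and 204 and 241 CPM in hypoxia. In BMDM it was 11.4, 28.1 and 37.1 CPM in the normoxic and 8.09, 34.7 and 63.5 CPM in the hypoxic co-culture libraries. There 3 to 8 of the 12 markers were at 1 CPM or more. Col1a2 was at 13.8, 21.4 and 42.3 CPM and at 12.4, 38.3 and 131 CPM in the same libraries. The smooth muscle and pericyte sum was 28.7, 32.5 and 60.04 CPM in the normoxic and 21.0, 22.4 and 89.5 CPM in the hypoxic libraries, which overlap. The part of such cells and of partner RNA in the result was not tested. With both libraries numbered 3 left out, an alternative chosen after seeing the data, 7 chains were called, 2 higher and 5 lower.

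Against monoculture, BMDM from co-culture had chains called in both directions. In normoxia 8 chains were higher and 2 lower of 28, where 1.64% of all genes differed (1.57% higher and 0.0675% lower). In hypoxia 10 were higher and 3 lower, where 7.11% differed (4.06% and 3.05%). A chain faint in monoculture could be tested because it was high in co-culture. The counts are thus not read as a result for the chains together. The lower chains were Col4a1 (normoxia: log2 difference -1.53, SE 0.25, edgeR adjusted p = 0.016; hypoxia: -1.88, SE 0.26, adjusted p = 0.0056) and Col4a2 (-1.5, adjusted p = 0.049, and -2.0, adjusted p = 0.0092), joined in hypoxia by Col4a6 (-2.42, SE 0.37, adjusted p = 0.0068). The monoculture libraries were above all co-culture libraries for these chains. The smooth muscle and pericyte marker sum was 78.6 and 58.9 CPM in normoxic monoculture against 28.7, 32.5 and 60.04 CPM in co-culture, and 33.8 and 39.9 CPM in hypoxic monoculture against 21.0, 22.4 and 89.5 CPM. It was below both monoculture libraries in co-culture libraries 1 and 2 at each oxygen level and above 1 or both of them in library 3, and its part in the result was not tested. Col18a1 was at 331, 545 and 488 CPM in normoxic co-culture (-0.75, adjusted p = 0.24) and at 402, 454 and 667 CPM in hypoxic co-culture (-0.77, adjusted p = 0.11).

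The higher chains were nearly all abundant in GL261. GL261-specific RNA, over 140 genes, was at 1.34, 2.29 and 3.70% of its GL261 level in the normoxic and 1.72, 3.21 and 6.28% in the hypoxic BMDM co-culture libraries. These 140 genes met the rule at both oxygen levels, whereas chains were taken at each level alone. On that basis it was met by 7 chains at each oxygen level. They were Col2a1, Col5a3, Col9a1, Col9a2, Col11a1 and Col27a1 at both, with Col11a2 in normoxia only and Col6a1 in hypoxia only. They had medians of 1.06, 2.50 and 3.82% and of 2.29, 3.78 and 6.75% in the same libraries. Single chains ranged from 0.723 to 4.98% in normoxia and from 1.32 to 14.98% in hypoxia. In hypoxic library 3 Col6a1 was at 14.98%, Col2a1 at 13.2% and Col5a3 at 9.98%, against the 6.28% of the other genes. Col2a1 was above the share of the other genes in all 6 libraries, at 3.55 against 1.72% in hypoxic library 1 and 5.38 against 3.21% in hypoxic library 2. These levels were set across 2 tables. Col9a2, for instance, was at no more than 1 count in any BMDM monoculture library and at 24.3 CPM in normoxic and 28.3 CPM in hypoxic co-culture on average. With genes left out whose level in GL261 was 4-fold that in BMDM or more, 1 chain was called in normoxia (Col4a1, edgeR adjusted p = 0.043) and 3 in hypoxia (Col4a1, Col4a2 and Col4a6, adjusted p = 0.021 to 0.024), all lower. In those fits 20 of 13002 genes were called in normoxia and 82 of 12198 in hypoxia. Col20a1, higher in hypoxic co-culture (1.29, SE 0.30, adjusted p = 0.032), was then at an adjusted p of 0.056.

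These BMDM calls rested on both monoculture libraries. In normoxia the count was 0 without either monoculture library, 4 without co-culture library 2 and 6 without co-culture library 3. In hypoxia it was 1 without monoculture library 1 and 0 without monoculture library 2. Without monoculture library 1 or 2 the log2 difference of Col4a1 in hypoxia was -1.95 and -1.81 (edgeR adjusted p = 0.051 and 0.073) and that of Col4a1 in normoxia -1.55 and -1.54 (0.14 and 0.13). That of Col2a1 in hypoxia was 6.87 and 9.41, against 7.63 with all libraries. With 1 library left in a group, its spread is taken to be like that of the other groups.

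The BMDM of the second experiment expressed the collagens of connective tissue. In normoxia with DMSO, Col1a1 was at 13202 and 12666 CPM and Col1a2 at 6270 and 6399 CPM, and per kilobase Col1a1 (1971 CPM per kb), Col1a2 (510), Col5a1 (283), Col5a2 (240) and Col3a1 (234) led. Col1a1 per kilobase was 3.75 to 3.99 times Col1a2. Fibril-forming chains made up 84.4% of the collagen RNA. In normoxic BMDM monocultures of the first experiment, which were grown without DMSO, the mean of Col1a1 per kilobase was 16.0.

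In the BMDM of the second experiment the summed collagen level was high where the summed stromal markers were high. The sum over all chains divided by the fibroblast marker sum was 14.61 and 13.96 in normoxia, 11.8 and 18.6 in hypoxia and 17.3 and 16.9 in hypoxia with panobinostat, while the marker sum itself went from 407 to 2272 CPM. In BMDM of the first experiment the same ratio was higher and more varied, at 35.7 to 123. Of the 12 markers 10 or 11 were at 1 CPM or more in each library of the second experiment. Lum, which encodes the matrix proteoglycan lumican, was at most 0.294 CPM. Smooth muscle and pericyte markers summed to 2951 and 2731 CPM in normoxia, 314 and 1253 CPM in hypoxia and 3919 and 4476 CPM with panobinostat, with 3 to 6 of 6 markers at 1 CPM or more. Macrophage markers summed to 27190 and 18194, 2881 and 10603, and 1032 and 5005 CPM in the same order. The part of these cells in the results that follow was not tested.

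**Figure D5:**
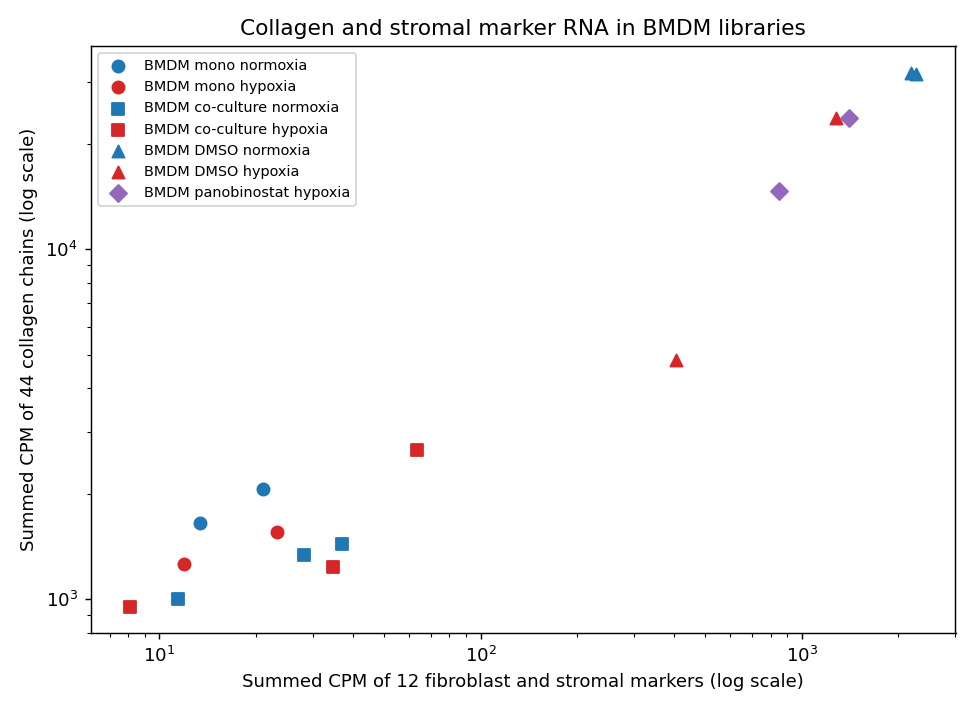
Summed level of all collagen chains (vertical axis, CPM, log scale) against the summed level of 12 fibroblast and stromal markers (horizontal axis, CPM, log scale) in each BMDM library. The 6 libraries of the second experiment lie at marker sums of 407 to 2272 CPM, apart from the 10 of the first experiment at 8.09 to 63.5 CPM.

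Hypoxia with DMSO changed 0 of 32 chains in these BMDM (edgeR, adjusted p under 0.05; 10 at an unadjusted p under 0.05; 9 with DESeq2), where 0.483% of all genes passed (0.469% higher and 0.0134% lower). The 2 hypoxic libraries were far apart: Col1a1 was at 1514 and 8411 CPM, Col1a2 at 1002 and 4769 CPM and Col5a1 at 404 and 2746 CPM. All 3 were lower there than in the normoxic libraries except that Col5a1, at 1798 and 3002 CPM in normoxia, overlapped. Col3a1, the type III chain of soft tissue, was at 3490 and 1097 CPM in normoxia and 96.1 and 522 CPM in hypoxia (log2 difference -2.84, SE 0.96, edgeR adjusted p = 0.15). Col6a1 was at 985 and 361 CPM and then 18.8 and 122 CPM (-3.21, SE 0.94, adjusted p = 0.12). The median over the tested chains was -1.18, against -0.01 over all genes.

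The chains past the threshold with DESeq2 were Col3a1, Col6a1, Col6a2, Col6a4, Col8a1, Col24a1 and Col27a1, lower, and Col11a2 and Col20a1, higher. Over all genes DESeq2 called 2260 of 14914 in the same comparison. Without hypoxic library 2 edgeR called 6 chains. Col20a1 was at 1.80 and 1.26 CPM in normoxia and 6.86 and 8.82 CPM in hypoxia (2.43, SE 0.36, edgeR adjusted p = 0.060).

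Panobinostat in hypoxia changed 0 of 32 chains in BMDM (edgeR; 7 at an unadjusted p under 0.05; 5 with DESeq2), where 0.0% of all genes passed in either direction. The median log2 difference of the tested chains was 0.71, against -0.03 over all genes. Col1a1 was at 6307 and 9849 CPM with panobinostat, which overlaps the 1514 and 8411 CPM without it. Col5a3 was at a mean of 477 CPM with and 86.2 CPM without it, with no overlap (2.20, SE 0.82, edgeR adjusted p = 0.16), and Col20a1 at 31.2 and 26.4 CPM against 6.86 and 8.82 CPM (1.59, SE 0.33, adjusted p = 0.069). With DESeq2 Col5a3, Col6a4, Col20a1 and Col27a1 passed as higher and Col19a1 as lower. DESeq2 called 2221 of 14914 genes in this comparison, so its 5 of 32 chains were near the share of all genes.

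In BV2 cells of the second experiment hypoxia with DMSO raised Col11a2 (log2 change 1.75, SE 0.35, edgeR adjusted p = 0.0042), Col20a1 (2.54, SE 0.47, adjusted p = 0.0028) and Col17a1 (3.69, SE 0.91, adjusted p = 0.011), and lowered Col4a5. These were 4 of 24 chains, where 37.5% of all genes changed (17.2% rose and 20.2% fell). The 24 passed the filter over all BV2 libraries of the second experiment, panobinostat included. Of the calls, Col11a2, Col20a1 and Col17a1 held without any 1 library. Col4a5 was at 143 and 90.5 CPM in normoxia and 56.1 and 76.2 CPM in hypoxia (-0.69, SE 0.24, edgeR adjusted p = 0.049). Without normoxic library 1 it changed by -0.31 (adjusted p = 0.29), and without hypoxic library 1 or 2 the adjusted p was 0.23 or 0.060. Col23a1 was at 14.3 and 8.62 CPM and then 22.5 and 16.7 CPM (0.93, SE 0.35, adjusted p = 0.060), with no overlap.

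Panobinostat raised 6 of 24 chains in hypoxic BV2 cells and lowered 0, where 14.6% of all genes changed (7.21% rose and 7.39% fell). A faint chain could be tested because it was high with panobinostat. Neither the count nor its direction is therefore read as a result for the chains together. Col17a1 was at 0.557 and 0.527 CPM with DMSO and 6.01 and 7.35 CPM with panobinostat (3.49, SE 0.48, edgeR adjusted p = 0.0033). Col4a5 was at 56.1 and 76.2 CPM and then 123.7 and 151.3 CPM (0.96, SE 0.25, adjusted p = 0.030), and Col7a1, of the fibrils that anchor epithelia, at 7.87 and 4.96 CPM and then 16.9 and 16.1 CPM (1.24, SE 0.35, adjusted p = 0.041). Col15a1 (1.63), Col16a1 (1.94) and Col4a6, with a mean of 0.893 CPM under panobinostat, were the others. None of the 6 overlapped between groups. Marker sums moved in the same libraries: that of macrophage and microglia markers was 2478 and 2246 CPM with DMSO and 1539 and 1321 CPM with panobinostat, that of the 12 fibroblast markers 4.25 and 4.89 CPM and then 11.1 and 9.85 CPM, with 1 to 4 of the 12 at 1 CPM or more, and that of the 6 smooth muscle and pericyte markers 11.1 and 8.88 CPM and then 20.7 and 17.9 CPM. Their part in the result was not tested.

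Col17a1 alone held without any 1 library. The count was 3 without DMSO library 1, 2 without DMSO library 2, and 1 without either panobinostat library. Col4a5, for instance, changed by 0.86 without panobinostat library 2 (edgeR adjusted p = 0.16) and Col7a1 by 0.87 without DMSO library 2 (0.16). BV2 libraries of the second experiment also held connective tissue chains at a low level: Col1a1 was at 7.61 to 12.7 CPM, against at most 0.162 CPM in BV2 monocultures of the first experiment. Over 17 chains abundant in normoxic BMDM of the same table, the median level in BV2 was 0.134 to 0.259% of the BMDM level in the second experiment, against 0.00591 to 0.0327% in the first. What brought this RNA into these libraries was not tested. The panobinostat effects of BMDM and BV2 differed for 0 of 35 chains (edgeR interaction test; 4 at an unadjusted p under 0.05; 1 with DESeq2, Col17a1), where 0.0251% of all genes passed (0.00627% higher and 0.0188% lower), and for 1 chain without hypoxic DMSO library 2 of BMDM.

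Across the 8 hypoxia comparisons of both experiments no chain passed in all. Col17a1 passed as higher in 5 of 8 and was too low to be tested in the others, the 3 of BMDM; in BV2 it passed the filter on low values through hypoxic or treated libraries. Col20a1 and Col2a1 as higher in 5 of 8 and 5 of 7, and Col15a1 and Col5a1 in 4 of 8 each. Others were called in both directions: Col4a5 was higher in the co-cultures of GL261 and BV2 and lower in BV2 with DMSO and in BMDM monocultures and co-cultures, and Col11a2 was higher in 3 and lower in 2. The comparisons of one cell type share no libraries, but the co-culture values of BV2 and BMDM carry the partner RNA given above.

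The list of enzymes that modify and fold collagen has 19 genes. In BV2 monocultures 10 of 18 tested rose and 0 fell (median log2 change 1.48, against 0.00 over all genes), where 61.9% of all genes changed (30.9% rose). In BMDM monocultures 8 of 19 rose and 0 fell (0.65, against 0.03), where 23.9% changed (13.3% rose). In GL261 monocultures 3 rose and 8 fell of 19 (-0.01, against -0.03), where 44.6% changed (23.2% rose and 21.4% fell). P4ha1, the catalytic subunit of prolyl 4-hydroxylase, went from 130 and 126 CPM to 1032 and 982 CPM in GL261, from 82.7 and 89.3 CPM to 321 and 378 CPM in BV2, and from 123 and 119 CPM to 550 and 524 CPM in BMDM monocultures. Its log2 changes were 3.03 (SE 0.15, edgeR adjusted p = 3.5e-07), 2.07 (SE 0.11, adjusted p = 5.2e-10) and 2.41 (SE 0.15, adjusted p = 7.6e-06).

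The lysyl hydroxylase Plod2 rose with it, by 1.54 in GL261, 3.45 in BV2 and 4.61 in BMDM monocultures. P4ha2, a second catalytic subunit, rose by 2.37 in GL261 and 5.59 in BMDM, but was at most 0.108 CPM in BV2 monocultures. Serpinh1, the collagen-specific chaperone of the endoplasmic reticulum, was abundant in GL261 (451 and 432 CPM in normoxia, 320 and 377 CPM in hypoxia) and did not pass there (log2 change -0.30, edgeR adjusted p = 0.17). In GL261 Colgalt2, a collagen galactosyltransferase, changed by -1.68 and Crtap, of the prolyl 3-hydroxylation complex, by -1.19. In co-culture the list had 15 of 18 higher and 1 lower in BV2, where 67.3% of all genes changed. It had 7 higher and 8 lower of 19 in GL261, where 52.4% changed. In BMDM it had 10 higher and 1 lower of 19, where 34.8% changed. GL261-specific RNA was at 0.955 and 0.568% of its GL261 level in normoxic and 2.07 and 2.35% in hypoxic BV2 co-culture libraries. The part of partner RNA in the BV2 and BMDM counts was not tested.

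Enzymes that trim and cross-link collagen outside the cell were measured less widely, with 6 of 13 genes tested in GL261, 10 in BMDM and 3 in BV2 of the first experiment. In GL261 monocultures 1 rose and 4 fell with hypoxia, where 44.6% of all genes changed, and the ones that fell included Loxl3, a lysyl oxidase (-1.31), Pcolce, an enhancer of propeptide cleavage (-1.01), and Bmp1, the C-propeptide protease (-0.61). In BMDM monocultures 2 of 10 had an unadjusted p under 0.05 (edgeR) and 0 an adjusted one; DESeq2 was read for the chains only. Lox, the founding lysyl oxidase, had 0 counts in GL261 monocultures; in BMDM its log2 change was 2.05 in monoculture (edgeR adjusted p = 0.12) and 2.85 in co-culture (0.011). Of the collagen receptors, 3 rose and 1 fell of 8 tested in GL261 monocultures, among them the discoidin domain receptors Ddr2 (1.48) and Ddr1 (0.66), and 2 rose and 2 fell of 8 in BV2 monocultures. These are 50% in each line, near or below the 44.6% and 61.9% of all genes that changed.

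With panobinostat 1 of the modifying enzymes rose and 1 fell of 14 tested in hypoxic BV2 cells (14.3%, where 14.6% of all genes changed): Plod2 changed by 1.07 (SE 0.20, edgeR adjusted p = 0.011) and P3h3, a prolyl 3-hydroxylase, by -1.03 (SE 0.30, adjusted p = 0.049). In BMDM of the second experiment 10 of 19 had an unadjusted p under 0.05 in hypoxia and 4 of 19 with panobinostat (edgeR), and 0 passed after adjustment.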

How the data were processed

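The deposited files are 3 tables of read counts per gene, whole numbers that the authors made without normalization. Per the submitters' processing notes, reads were handled with Trimmomatic 0.36, STAR 2.6, SAMtools and HTSeq 0.9.1 on mm10, with Picard 2.17.1 named for the first table only. The strand setting and annotation release are not given in the sources used here. Libraries were stranded poly(A) libraries, per the labels' protocols. Depth was 9634700 to 27238933 counts, so 3 counts correspond to 0.110 to 0.311 CPM.

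Samples were grouped by their labels. Each cell type was fitted within each table, with all its groups sharing one spread, by edgeR's quasi-likelihood test (edgeR 4.0.16, R 4.3.3), after TMM scaling and filterByExpr (minimum count 10, minimum total 15), with Benjamini-Hochberg adjustment over all genes tested and a threshold of 0.05. Levels of different tables were set side by side without a test, except GL261 against BV2, which share a table. Lengths are exon unions of GENCODE M21. DESeq2 1.42.0, DESeq2 size factors, no filter beyond 1 count, a replicate block, fits of the compared groups only, removal of genes high in the partner and removal of each library were alternatives. The statistics were tested on simulated data.

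The members, gene lists and tests were chosen with earlier results of these data known. Any chain past the threshold may be named in a comparison, up to the 20 with the greatest change, and any chain at a mean of 1 CPM or more in a group by its level; up to 6 genes of each pathway list past the threshold, of mean log2 CPM 4 or more, are named by size of change, with P4ha1, P4ha2, Plod2, Serpinh1 and Lox always. Same-numbered libraries of the BMDM co-cultures deviated together (correlations 0.548, 0.268 and 0.442 for the 3 pairs). The labels give only the numbers, so the main fits held no replicate block and a blocked fit was an alternative. No protein sequence is printed, and 9 chains had no window in the RefSeq table used.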

Additional observations from a re-analysis of the deposited data

How the results depend on the processing

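Counts of called chains are limited by groups of 2 or 3 libraries and by low counts: chains under about 1 CPM gave folds that depend on few reads. No called chain changed direction under any alternative run. Of the calls of single chains in the edgeR fits, all but 9 of 160 held with DESeq2, 156 of 160 with DESeq2 size factors, 160 of 160 without the filter, 160 of 160 with a replicate block, 28 of 34 in fits of the 2 groups only, 5 of 10 without genes high in the partner, 24 of 30 without both BMDM co-culture libraries numbered 3 (chosen after seeing the data), and 503 of 677 when 1 library was left out. The cause of the shifts below was not tested. With no filter beyond 1 count the number of chains called was 4 for GL261 co-culture against monoculture in normoxia and 5 in hypoxia, 8 for BMDM monocultures in hypoxia, 15 for BMDM co-cultures in hypoxia, 20 for BMDM co-culture against monoculture in normoxia, 11 for panobinostat in BV2, 17 for hypoxia and 13 for panobinostat in BMDM of the second experiment, and 2 for the difference of the panobinostat effects. With DESeq2 it was 4 for GL261 co-culture against monoculture in hypoxia (0 with its size factors in edgeR), where DESeq2 called 459 of 15189 genes. It was 9 and 5 for hypoxia and panobinostat in BMDM of the second experiment, where 2260 and 2221 of 14914 genes were called. It was 1 for the difference of the panobinostat effects, where 227 of 15955 genes were called. With the replicate number as a block it was 3 for GL261 co-culture against monoculture in hypoxia, 7 for BMDM monocultures, 13 for BMDM co-cultures, and 7 and 6 for hypoxia and panobinostat in BMDM of the second experiment; it changed no other count by over 1.5 times. Only the BMDM co-cultures have 3 pairs; elsewhere samples share only a number, and the deviations of same-numbered libraries correlated at -0.02 to 0.62. A fit of the 2 groups only gave 7 for BMDM monocultures, where 6289 of 13237 genes were called. Without genes high in the partner, the count against monoculture was 1 and 0 for BV2, 0 and 0 for GL261 and 1 and 3 for BMDM in normoxia and hypoxia. Leaving out 1 library gave 7 to 10 for GL261 monocultures in hypoxia, 0 to 1 and 0 to 3 for GL261 co-culture against monoculture in normoxia and hypoxia, 0 to 1 for BMDM monocultures and 4 to 10 for BMDM co-cultures in hypoxia, 0 to 11 and 0 to 15 for BMDM co-culture against monoculture in normoxia and hypoxia, 1 to 3 for panobinostat in BV2, 0 to 6 for hypoxia in BMDM of the second experiment and 0 to 1 for the difference of the panobinostat effects.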
